A study of Mus musculus and Bos taurus with 6 samples.

Results

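Bovine chromosomes 6, 12 and 20 are the 3 autosomes on which SOX9 peaks were sparsest in fetal testis of cattle. All peaks that the deposited bovine list places on these chromosomes were taken, which gave 732 of the 11988 peaks of that list and of the 18407 peaks of the mouse and bovine lists together. Chromosome 6 held 309 of them, chromosome 12 held 241 and chromosome 20 held 182. The chromosomes were chosen by their number of peaks per Mb in these same data, the lowest of the 29 autosomes. Their peak numbers, densities and spacing are therefore given as a description, with no test.

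SOX9 is an HMG-box transcription factor that binds in the minor groove of DNA and bends it. In the fetal testis it is made by the supporting cells and directs them to become Sertoli cells, which then organise the testis cords. Transcription factors of this kind bind at promoters and at distant enhancers, so binding sites tend to gather where genes and their control elements lie and to thin out in gene-poor stretches. Chromosome 6 of cattle is known for the casein gene cluster, chromosome 20 for the growth hormone and prolactin receptor genes, and chromosome 12 for RB1, BRCA2 and FGF9, the last a growth factor that acts together with SOX9 in testis differentiation. Which genes lie near the peaks was not analysed here, and no gene is named as bound.

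The study profiled SOX9 by ChIP-seq in Swiss OF1 mouse testes at stage E13.5 and in Holstein cattle testes collected 90 days after fertilization. The bovine group used here has 2 SOX9 libraries, made with a homemade rabbit antibody, and 1 input library of chromatin DNA without immunoprecipitation. All were made from whole gonads crushed to powder, fixed with 2 mM disuccinimidyl glutarate and then with 1% formaldehyde for 30 minutes each, and the labels name no step that isolates a cell type. The labels do not say how many fetuses were used or whether the libraries came from separate animals. A single bovine peak list stands for the 3 libraries, so no value below has a replicate error, and read depth is unknown. Intervals cover counting error only, and neighbouring peaks are not independent. Positions are in UMD3.1, counted from 1, and the span of a chromosome runs from its first to its last peak.

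Peak density was close to the same on the 3 chromosomes. Chromosome 20 had 2.54 peaks per Mb (95% Poisson interval 2.18 to 2.93), chromosome 6 had 2.61 (2.33 to 2.92) and chromosome 12 had 2.66 (2.33 to 3.01), so their order cannot be told from counting error. The sparsest autosomes left outside were chromosome 9 at 3.18 peaks per Mb (2.84 to 3.53), chromosome 1 at 3.24 (2.96 to 3.53) and chromosome 27 at 3.26 (2.76 to 3.84). The intervals of chromosomes 9 and 27 overlap those of all 3 chosen chromosomes, and that of chromosome 1 overlaps only that of chromosome 12. Over all 3, the density was 2.61 peaks per Mb (2.42 to 2.80) against 5.02 (4.93 to 5.11) on the other 26 autosomes. They carried 6.21% of autosomal peaks on 11.3% of the autosomal span. Peaks covered 0.339% of their span, against 0.631% on the other 26 autosomes, and each of the 26 lay at or above 0.400%.

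How the low density was made up on the 3 chromosomes depended on the length at which a stretch was counted as long. The main cutoff was 2 Mb. Long stretches without a peak were one component. Stretches of more than 2 Mb numbered 10 on chromosome 6, 10 on chromosome 12 and 4 on chromosome 20, and took up 33.2%, 43.4% and 29.7% of the respective spans. The median of the other 26 autosomes was 17.9%, and they ranged from 3.91% on chromosome 19 to 32.9% on chromosome 29. By this share chromosome 12 ranked the first and chromosome 6 the second of the 29 autosomes, while chromosome 20 ranked the fifth.

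The density outside these stretches was the other. With stretches over 2 Mb left out, chromosome 20 still had the lowest density of the 29 autosomes, 3.61 peaks per Mb (3.102 to 4.17), and chromosome 6 at 3.91 (3.49 to 4.37) ranked the fourth from the bottom. Chromosome 12 rose to 4.70 peaks per Mb (4.12 to 5.33) and ranked the eighth from the bottom, above chromosome 9 (3.87), chromosome 27 (4.59) and chromosome 1 (4.62). The median of the other 26 autosomes by this measure was 5.91 and their lowest value 3.85 on chromosome 4. Thus chromosome 12 ranked among the other sparse autosomes once its long empty stretches were left out. Chromosome 20 had the lowest value with or without them. Without them its interval overlaps those of chromosomes 6 and 12, and also those of chromosome 4 (3.48 to 4.25) and chromosome 9 (3.47 to 4.31). Its place below these cannot be told from counting error. The ranks also depend on the length at which a stretch is left out. When only stretches over 5 Mb were left out, an alternative chosen after the data were seen, the densities were 3.04 on chromosome 6, 3.13 on chromosome 12 and 3.13 on chromosome 20, and the 3 chromosomes again had the lowest values of all 29. With stretches over 1 Mb left out, they were 5.39, 6.50 and 5.27, at ranks 2, 8 and 1 from the bottom. The lowest value of the other 26 was then 5.58 and their median 7.68. Chromosomes 12 and 20 thus ranked as they did with stretches over 2 Mb left out.

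**Figure D1:**
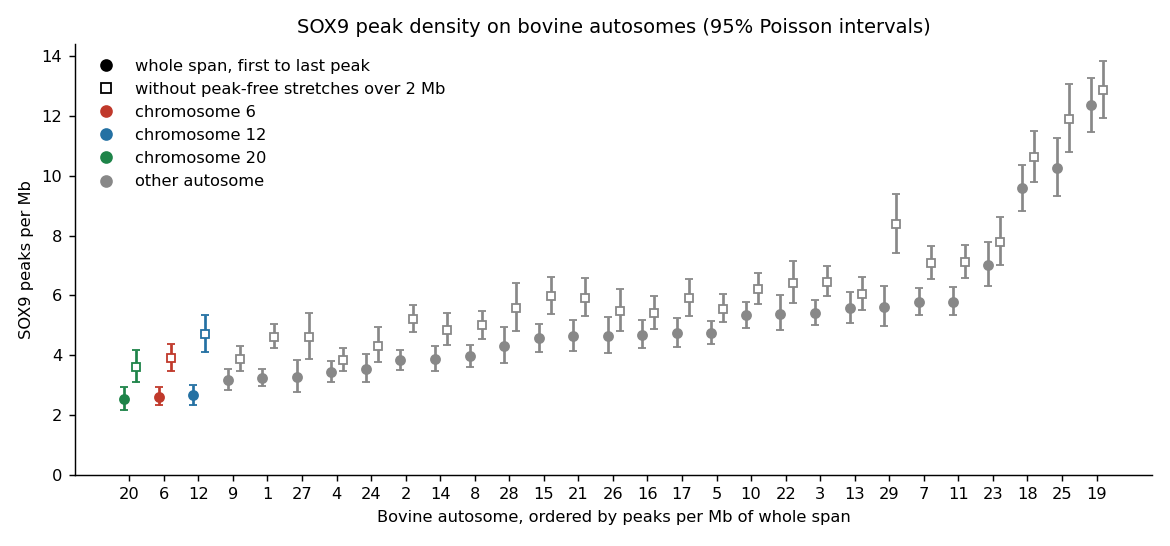
Peaks per Mb on each of the 29 bovine autosomes, over the whole span (filled circles) and without peak-free stretches over 2 Mb (open squares), with 95% Poisson intervals. Chromosomes 20, 6 and 12 sit at 2.54 to 2.66 over the whole span, and chromosome 12 moves to 4.70, among the other sparse autosomes, when the stretches are left out.

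In windows of 1 Mb, the empty ground was the common feature. Windows without a peak made up 30.8% on chromosome 6 (37 of 120, exact binomial 95% interval 22.7 to 39.9%), 32.6% on chromosome 12 (30 of 92, 23.2 to 43.2%) and 29.2% on chromosome 20 (21 of 72, 19.1 to 41.1%). These were the 3 highest shares among the 29 autosomes, next to chromosome 27 at 28.3%, and the median of the other 26 was 17.0%. Occupied windows were also thinly filled. They held on average 3.72 peaks on chromosome 6, 3.89 on chromosome 12 and 3.57 on chromosome 20, against a median of 5.56 on the other 26. Chromosomes 4 (3.92) and 9 (3.93) were close to these values. Empty and thinly filled windows follow from fewer peaks per Mb, by which the chromosomes were chosen. No 1 Mb window of the 3 chromosomes held more than 12 peaks, while the fullest window of the other autosomes ranged from 11 peaks on chromosome 9 to 44 on chromosome 25. The fullest 10% of windows held 34.6%, 34.0% and 33.0% of the peaks of chromosomes 6, 12 and 20, near the median of the other 26 (31.8%, range 24.5 to 42.8%). By that measure the few peaks were about as concentrated as the many peaks elsewhere. The share itself varies with density, however, and was not scaled for it.

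**Figure D2:**
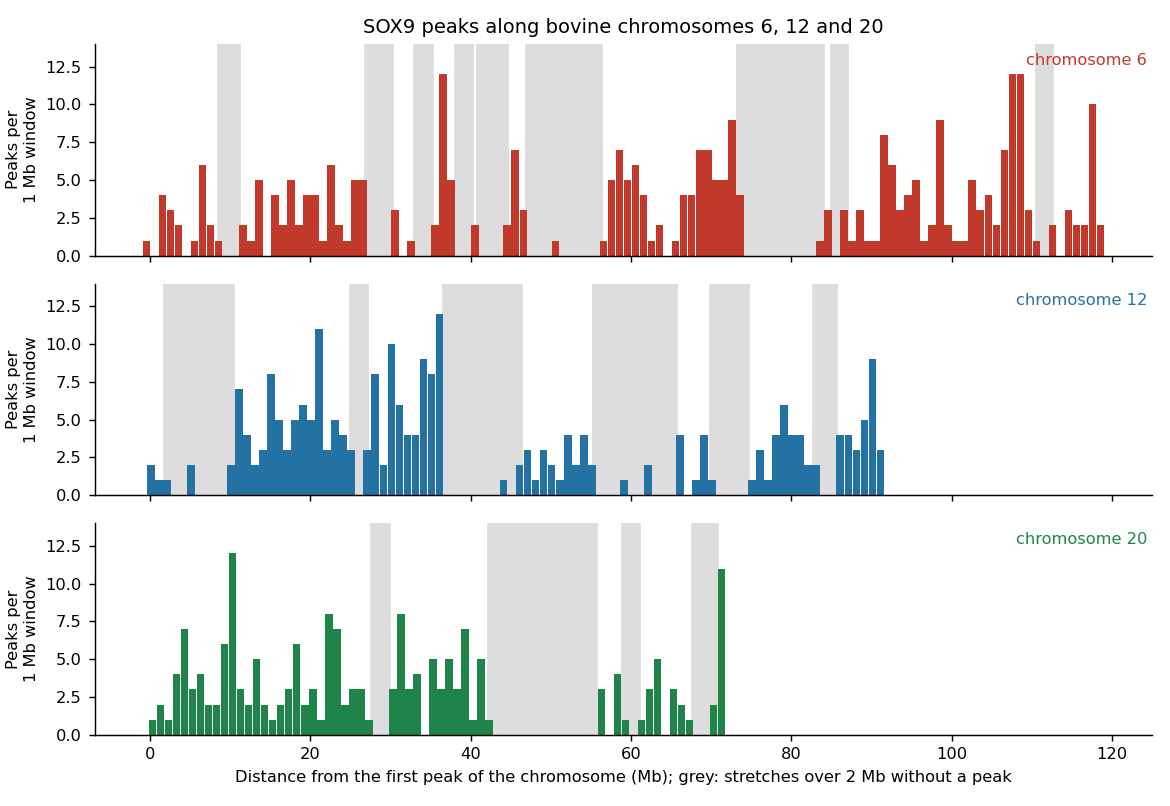
Number of SOX9 peaks in each 1 Mb window along chromosomes 6, 12 and 20, by distance from the first peak of the chromosome, with stretches of more than 2 Mb without a peak in grey. Chromosome 12 is filled mostly over its first part, chromosome 20 has 1 long empty stretch of 13.6 Mb, and chromosome 6 alternates between occupied blocks and stretches of up to 10.8 Mb.

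Chromosome 20 had the simplest layout. Its longest stretch without a peak, 13.6 Mb from 42416302 to 56020660, took up 19.0% of the span and was the longest on any autosome of the list. Before it lay 146 of the 182 peaks in 42.2 Mb, or 3.46 peaks per Mb, and after it 36 peaks in 15.9 Mb, or 2.26 per Mb. The peaks that border the stretch were 1721 and 1713 bp wide, and the second of them had a neighbour 0.565 kb away. The next stretches were much shorter, at 3.14 Mb (67852937 to 70990605) and 2.32 Mb (27756584 to 30080479). The fullest windows were 10000001 to 11000000 with 12 peaks, 71000001 to 72000000 with 11 and 22000001 to 23000000 with 8. The second of these belongs to a compact block at the far end of the mapped span, where 13 peaks lay within 0.974 Mb (70990606 to 71964636), directly after the 3.14 Mb stretch. That block had 13.3 peaks per Mb (7.11 to 22.8) on the autosome with the lowest density value of the list. It was picked out after its values were seen.

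Chromosome 12 was filled from one side. The 36.5 Mb before its longest stretch held 148 of the 241 peaks, or 4.05 per Mb, and within them 2 blocks stood out, 76 peaks from 10935204 to 25364052 (5.27 per Mb, 4.15 to 6.59) and 66 peaks from 27644151 to 36923288 (7.11 per Mb, 5.50 to 9.05). The 3 fullest windows all lay in these blocks, at 36000001 to 37000000 with 12 peaks, 21000001 to 22000000 with 11 and 30000001 to 31000000 with 10. The longest stretch of the chromosome, 7.90 Mb from 36923289 to 44823042, began inside the window of 12 peaks, so that its densest and its emptiest ground met there.

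Beyond that edge, chromosome 12 held 38 peaks in the 25.4 Mb from 44823043 to 70209851, or 1.497 peaks per Mb. These included a single peak of 1019 bp at 59144180 to 59145198, with 3.46 Mb free of peaks before it and 3.52 Mb after it, and a pair from 62664730 to 62670064 with 3.52 and 3.40 Mb free on its sides. A stretch of 4.95 Mb (70209852 to 75162510) followed, and the last 15.9 Mb held 55 peaks, or 3.45 per Mb. The second longest stretch of the chromosome, 5.73 Mb from 5204189 to 10935203, lay near the beginning, and only 6 peaks preceded it. The zones were drawn after the positions were seen.

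Chromosome 6 was broken into 11 blocks by its 10 stretches over 2 Mb. The longest stretch ran for 10.8 Mb from 74188929 to 84998117 and took up 9.13% of the span, followed by 5.73 Mb (51537407 to 57266165) and 3.90 Mb (41686219 to 45588095). The 2 blocks with the most peaks lay on either side of the longest stretch, with 77 peaks from 57266166 to 74188928 (4.55 per Mb, 3.59 to 5.69) and 100 peaks from 87939922 to 111407670 (4.26 per Mb, 3.47 to 5.18). A further 4 peaks from 84998118 to 85840292 stood between the longest stretch and one of 2.10 Mb. Between 31244682 and 51537406, by contrast, 38 peaks were spread over 20.3 Mb, or 1.87 per Mb. The fullest windows were 37000001 to 38000000, inside this poor zone, and the adjoining windows 108000001 to 109000000 and 109000001 to 110000000, with 12 peaks each. The first of them was part of a block of 19 peaks in 2.71 Mb, closed in by stretches of 2.48 and 2.25 Mb.

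Peaks were thus not thinned evenly along any of the 3 chromosomes. When each span was divided into 3 equal parts, chromosome 20 held 89 peaks in the first, 57 in the middle and 36 in the last, and chromosome 12 held 104, 70 and 67. Chromosome 6 went the other way, with 92, 92 and 125. The gradients ran in different directions, and the 3 chromosomes shared no common position of their peaks along the span.

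The gaps between neighbouring peaks, edge to edge, had a median of 132 kb on chromosome 6 (95% interval of the median 106 to 168 kb), 123 kb on chromosome 20 (100 to 188 kb) and 108 kb on chromosome 12 (77.55 to 129 kb). These ranked the first, the third and the sixth of the 29 autosomes, with chromosome 9 (132 kb) in the second place. The pooled median was 119 kb (106 to 139 kb) against 62.1 kb (59.8 to 64.3 kb) on the other 26. A large part of the shift was in the middle of the distribution. Gaps of 10 to 100 kb made up 32.1% of the 729 gaps (28.7 to 35.6%) against 44.6% elsewhere (43.7 to 45.6%), and gaps of 100 kb to 1 Mb made up 46.6% (43.0 to 50.3%) against 34.0% (33.1 to 34.9%). Gaps of 1 Mb and over were 8.64% of gaps (63 of 729) and 54.3% of all gap length, against 4.22% and 39.1% elsewhere.

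Since longer gaps follow from fewer peaks, the gaps were also divided by the mean gap of their part of the genome. The median gap was then 0.311 of the mean on chromosomes 6, 12 and 20 pooled and 0.313 on the other 26 pooled. Taken singly, chromosome 6 was at 0.346, chromosome 20 at 0.312 and chromosome 12 at 0.286, inside the range of the other 26 (0.227 to 0.418). The coefficient of variation of the gaps was 2.26 on chromosome 6, 2.33 on chromosome 12 and 2.76 on chromosome 20, against a median of 2.03 and a range of 1.51 to 2.92 elsewhere. Chromosome 20 had the second highest value of the 29, and it includes the gap of 13.6 Mb. By both measures the scaled spacing on the 3 chromosomes lay within the range of the other autosomes. In the upper tail chromosome 20 lay outside it. Its 96% and 98% quantiles were 3.63 and 4.82 times its mean gap. The lowest values elsewhere were 3.75 on chromosome 28 and 5.17 on chromosome 9.

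**Figure D3:**
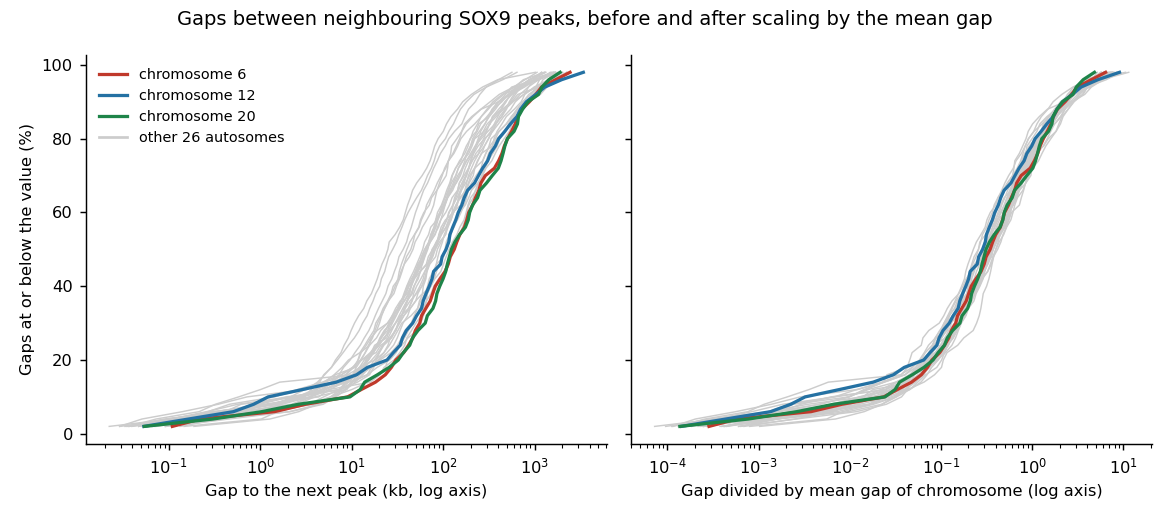
Cumulative distribution of gaps between neighbouring peaks on each bovine autosome, in kb on the left and divided by the mean gap of the chromosome on the right, both on log axes. In kb, chromosomes 6 and 20 lie towards long gaps over the middle of the curves (medians of 132 and 123 kb) and chromosome 12 somewhat to their left (108 kb). After scaling, all 3 run among the other autosomes over most of the curves. At the 96% and 98% points chromosome 20 lies to the left of them, at shorter scaled gaps.

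At short range, as the peaks are listed, chromosome 12 had a higher share of close neighbours than the other two. Of its peaks, 30.7% (74 of 241, exact binomial interval 24.9 to 36.9%) had another peak within 10 kb, against 22.0% on chromosome 6 (68 of 309, 17.5 to 27.05%) and 20.9% on chromosome 20 (38 of 182, 15.2 to 27.5%). Chromosome 20 had the lowest share of the 29 autosomes and chromosome 6 the third lowest, while chromosome 12 ranked the twentieth from the bottom, above the median of the other 26 (28.7%). The intervals of chromosome 12 and the other two overlap in part. These ranks moved with the setting. After merging of peaks less than 500 bp apart the shares were 13.6% on chromosome 6, 20.4% on chromosome 12 and 12.6% on chromosome 20, which ranked the sixth, the eighteenth and the second from the bottom. Among the widest 50% of the list they were 7.33%, 7.75% and 4.30%, ranked the fourth, the fifth and the second. That filter keeps peaks of at least 1222 bp, and peaks with close neighbours were narrower, so it removes close neighbours in particular. That chromosome 12 no longer stood apart from chromosome 6 there can therefore not be told apart from the filter. Gaps under 500 bp numbered 15 on chromosome 6, 15 on chromosome 12 and 8 on chromosome 20, or 4.87%, 6.25% and 4.42% of gaps, within the range of the other autosomes (2.75 to 10.0%).

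Close groups were nearly all pairs. Of 88 groups of peaks within 10 kb, 84 were pairs and 4 were groups of 3. The groups of 3 were at 21980488 to 21985379 and 99586303 to 99590290 on chromosome 6, and at 35660464 to 35665961 and 89269620 to 89275482 on chromosome 12. Their members were narrow to moderate in width, from 547 to 933 bp and from 801 to 1232 bp on chromosome 6, and from 603 to 1691 bp and from 712 to 1471 bp on chromosome 12. Each group fitted within 5.86 kb. Chromosome 20 had 19 pairs and no group of 3, whereas each of the other 26 autosomes had at least 1. Per 100 peaks, groups of 3 or more numbered 0.546 on the 3 chromosomes pooled and 2.53 on the other 26 together. Taken singly, chromosome 6 had 0.647, chromosome 12 had 0.830 and chromosome 20 had 0. The lowest single value of the other 26 was 0.680 on chromosome 27, below that of chromosome 12. Chromosome 9 at 0.898 and chromosome 1 at 1.17 came next above chromosome 12. Fewer neighbours and groups within a fixed 10 kb go with fewer peaks per Mb, by which the chromosomes were chosen.

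At the opposite end were the isolated peaks. A total of 32 peaks stood more than 500 kb from any other, 17 on chromosome 6, 7 on chromosome 12 and 8 on chromosome 20. They made up 5.50% of the peaks of chromosome 6, the highest share of the 29 autosomes, 4.40% on chromosome 20 and 2.90% on chromosome 12, against a median of 2.39% elsewhere. Chromosome 4 was close to chromosome 6 at 5.30%, and chromosomes 27 (4.76%) and 1 (4.50%) lay above chromosome 20. Larger shares of isolated peaks follow from fewer peaks per Mb, by which the chromosomes were chosen. The most isolated peak of chromosome 6 lay at 51536042 to 51537406, 3.72 Mb from its nearest neighbour and 1365 bp wide. It was followed by one at 33807505 to 33808877 (1.98 Mb, 1373 bp) and one at 57266166 to 57267575 (1.22 Mb, 1410 bp). These widths are close to the chromosome's median of 1356 bp.

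On chromosome 12 the most isolated peaks were the one at 59144180, 3.46 Mb from any other, one at 44823043 to 44824271 (2.03 Mb, 1229 bp) and one at 75162511 to 75163623 (1.76 Mb, 1113 bp). The last 2 stand at the far edges of the 7.90 and 4.95 Mb stretches. On chromosome 20 they were at 27754910 to 27756583 (1.46 Mb, 1674 bp), 61305443 to 61306254 (1.32 Mb, 812 bp) and 67851328 to 67852936 (1.13 Mb, 1609 bp). Isolation thus went with widths from 812 to 1674 bp among these 9 peaks. The 45 peaks that border stretches over 2 Mb had a median width of 1373 bp (1228 to 1609 bp), against 1276 bp (1242 to 1330 bp) for the other 687, and the same medians on the other 26 autosomes were 1340 and 1217.5 bp.

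In width the 3 chromosomes were not alike. The rule did not use width, but the peaks of 1 list are not replicates, so the widths are described without a test. Chromosome 6 had the highest median of the 29 autosomes, 1356 bp (95% interval 1294 to 1401 bp). Its lower quartile of 1065 bp and its upper quartile of 1612 bp were also the highest. Chromosome 12 had a median of 1254 bp (1174 to 1330 bp) and ranked the seventh, and chromosome 20 a median of 1232.5 bp (1174 to 1302 bp) and ranked the twelfth. The other 26 autosomes ranged from 1154 bp on chromosome 21 to 1302 bp on chromosome 28. Pooled, the 3 chromosomes had a median of 1284.5 bp (1250 to 1332 bp) against 1220 bp (1211 to 1229 bp).

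Broad peaks split the chromosomes further. Peaks over 2000 bp made up 8.09% on chromosome 6 (25 of 309, exact binomial interval 5.30 to 11.7%), the highest share of the 29 autosomes, and 1.66% on chromosome 12 (4 of 241, 0.454 to 4.19%), the lowest. Chromosome 20 had 3.30% (6 of 182, 1.22 to 7.04%), and the other 26 ranged from 2.52% to 6.53% with a median of 4.34%. The pooled share of 4.78% (3.35 to 6.59%) was near the 4.31% of the other 26 and hid the split. Without chromosome 6 the share was 2.36%. Peaks over 1500 bp made up 35.0% on chromosome 6 (29.6 to 40.6%), 26.6% on chromosome 12 (21.1 to 32.6%) and 26.4% on chromosome 20 (20.1 to 33.4%), against 25.1% on the other 26 autosomes (24.2 to 25.9%). Chromosome 6 was thus the highest of the 3 at both widths, while the low share of chromosome 12 at 2000 bp was not seen at 1500 bp. Narrow peaks under 750 bp made up 6.80% on chromosome 6, 7.88% on chromosome 12 and 9.89% on chromosome 20, around the 8.44% of the other 26.

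Chromosome 6 had the highest median width also when close pairs were treated differently. After peaks less than 500 bp apart were merged, its median was 1401 bp (1350 to 1465 bp), and with such peaks left out it was 1373 bp, both the highest of the 29. Its share of regions over 2000 bp after merging was 11.9%, the second highest. The median widths of the other chromosomes changed rank. After merging, chromosome 12 was at 1319.5 bp (rank 6 of 29) and chromosome 20 at 1268.5 bp (rank 21). With close peaks left out they were at 1266 bp (rank 11) and 1260.5 bp (rank 12). The low share of broad peaks on chromosome 12 depended on how close pairs were treated. With peaks closer than 500 bp left out it was 1.42% (3 of 211), still the lowest of the 29. After merging, in which 2 adjoining peaks become 1 broader region, the share was 6.64% (15 of 226 regions), and chromosome 12 ranked the twenty-fourth instead of the last.

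**Figure D4:**
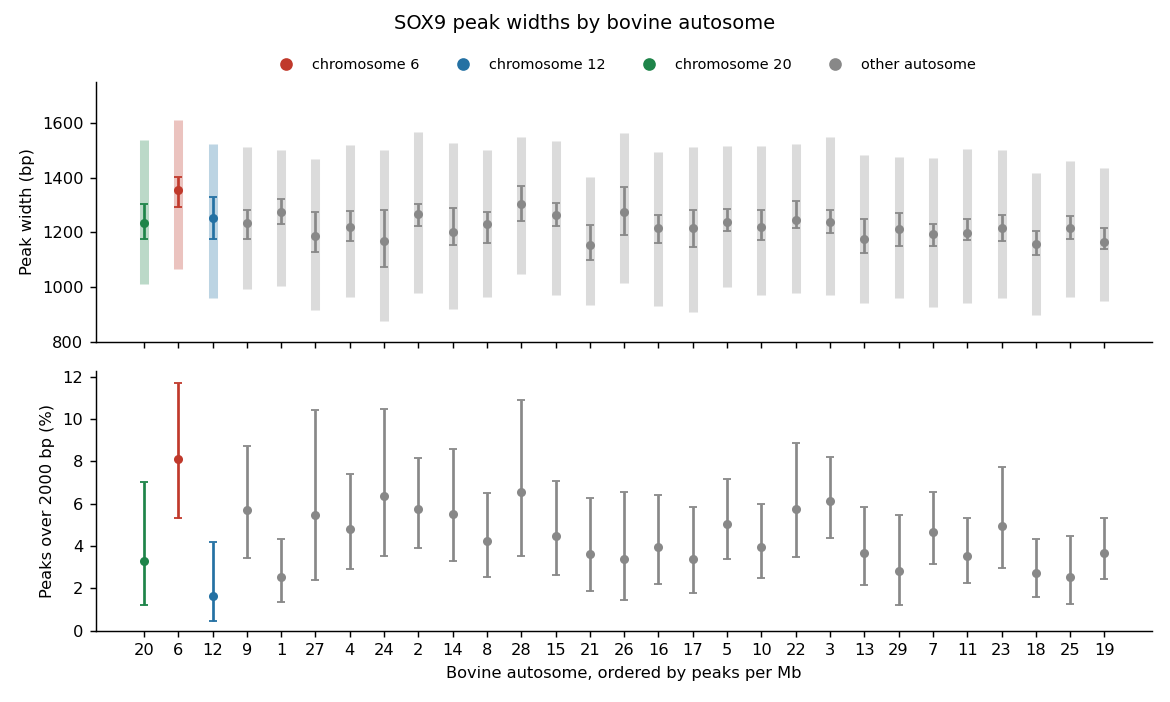
Median peak width with its 95% interval and the quartile range as a shaded bar (top), and share of peaks over 2000 bp with its exact 95% interval (bottom), for the 29 bovine autosomes in order of peak density. Chromosome 6 is the highest in both panels, and chromosome 12 is the lowest in the bottom panel.

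The widest region of the 3 chromosomes lay on chromosome 6 from 45588096 to 45591436 and measured 3341 bp. It stood directly at the end of the 3.90 Mb stretch, with its nearest neighbour 90.9 kb away. The next on this chromosome were 2479 bp (116109723 to 116112201), 2435 bp (92295772 to 92298206), 2368 bp (93487546 to 93489913) and 2330 bp (20528811 to 20531140). The window from 92000001 to 93000000, which holds the third of them, had 8 peaks with a median of 1756.5 bp. All 5 lay at least 39.6 kb from any other peak.

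On chromosome 12 the widest regions gathered in 1 place. Those of 2997 bp (19666416 to 19669412), 2251 bp (20973431 to 20975681), 2069 bp (19106533 to 19108601) and 1931 bp (19433644 to 19435574) lay within 2 Mb of each other, in the block of 76 peaks, and 1 of 2131 bp (34756369 to 34758499) lay in the block of 66. Peak widths were smaller towards the other end. Of the 3 equal parts of the span, the first had a median of 1335.5 bp, the middle 1282.5 bp and the last 1101 bp, with 3, 1 and 0 peaks over 2000 bp. On chromosome 20 the widest regions were 2975 bp (62818354 to 62821328), 2248 bp (13998637 to 14000884), 2225 bp (22098993 to 22101217), 2076 bp (24595516 to 24597591) and 2057 bp (32198695 to 32200751), spread over the chromosome. The widest of them lay in the thinly bound part beyond the 13.6 Mb stretch.

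Peaks with close neighbours were narrower on all 3 chromosomes. Across peaks, Spearman's rho was 0.22 on chromosome 6 (309 peaks), 0.23 on chromosome 20 (182) and 0.13 on chromosome 12 (241), where the peaks of a chromosome share the list and its calling. Peaks with a neighbour under 500 bp away had medians of 927.5 bp on chromosome 6, 1060 bp on chromosome 12 and 847 bp on chromosome 20, against 1006 bp on the other 26 autosomes. Peaks 10 to 100 kb from the nearest had medians of 1365 bp (1301 to 1463 bp), 1333 bp (1263 to 1437 bp) and 1264 bp (1216 to 1384 bp), against 1254 bp (1239 to 1266 bp). The intervals of chromosome 6 and of the other 26 autosomes did not overlap in this class but overlapped in every other class. They cover counting error only, and the peaks are not replicates. The 17 most isolated peaks of chromosome 6, 500 kb and more from any other, had a median of 1579 bp (1373 to 1833 bp), the 7 of chromosome 12 one of 1113 bp (945 to 1523 bp) and the 8 of chromosome 20 one of 1398.5 bp (792 to 1837 bp). The 233 such peaks of the other 26 autosomes had a median of 1354 bp (1285 to 1429 bp), and its interval overlaps those of all 3 chromosomes.

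**Figure D5:**
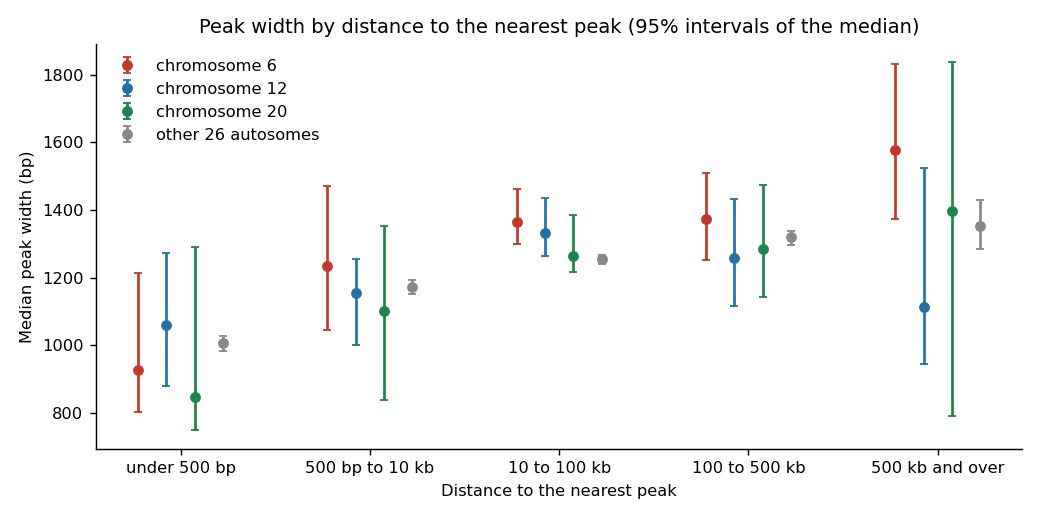
Median peak width by distance to the nearest peak, for chromosomes 6, 12 and 20 and for the other 26 autosomes, with 95% intervals of the median. Chromosome 6 lies above the other 26 autosomes in each class but the closest, and chromosome 12 does not rise in the 2 farthest classes.

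What the empty stretches hold was not analysed. No peak can be called in assembly gaps or in sequence to which reads cannot be assigned, and whether peaks were left out of the list in these stretches before this work is not known. The part of these in the stretches, and that of gene number along the chromosomes, was not tested.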

How the data were processed

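Peaks of 2 SOX9 ChIP-seq libraries and 1 input library of bovine fetal testis were read from 1 list. The authors deposited chromosome, start, end and 1 other value per peak, and this value, in base pairs, equals end minus start in every line. The submitters' processing notes name mm9 and UMD3.1, and UMD3.1 was taken as the bovine build. For the aligner, peak caller, threshold and pooling of replicates, the sources used here give nothing. Read depth is unknown. The lists hold no height or score, so width stood in for it in the stricter alternative. Planned distances to genes were not run, and no sequence is shown, since no UMD3.1 annotation or genome was used.

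Gaps were measured edge to edge. Windows of 1 Mb began at the start of each chromosome and peaks were assigned by midpoint. Stretches are gaps over 2 Mb. Density has exact Poisson intervals, shares have exact binomial (Clopper-Pearson) intervals and medians have order-statistic intervals, all at 95%. Comparisons are ranks and ranges over 29 autosomes, with no test. The regions named per chromosome are the 5 widest peaks, the 3 fullest windows, the 3 longest stretches, the largest groups within 10 kb and the 3 most isolated peaks, and others were chosen after their values were seen. For chromosome 20 the largest groups are its 19 pairs, given as a count. The chromosomes and measures were chosen with earlier results of these data known. Alternatives were merging under 500 bp, the widest 50% of the list, other windows, distances and stretch lengths, and leaving out each chromosome. Python 3.11.15, numpy 2.4.6, pandas 2.3.3 and scipy 1.17.1 were used, and the functions were tested on simulated data.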

Additional observations from a re-analysis of the deposited data

How the results depend on the processing

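Over chromosomes 6, 12 and 20 pooled, 54 alternative values of 9 results were computed. Of these, 34 stayed within the 95% interval of the reported value, or within 1.5 times for the number of peaks and the share of span in stretches, and 20 moved. Merging peaks less than 500 bp apart gave a median width of 1354 bp, 8.50% of regions over 2000 bp and 15.6% with a neighbour within 10 kb. Among the widest 50% of the bovine list there were 413 peaks at 1.48 per Mb, with a median width of 1529 bp, 8.47% over 2000 bp, a median gap of 243 kb, 6.78% with a neighbour within 10 kb and 40.6% of windows empty. Without chromosome 6 there were 423 peaks, 2.36% of them over 2000 bp. A neighbour distance of 5 kb gave 21.3% and one of 50 kb 49.0%. Windows of 500 kb gave 47.4% empty and 40.4% of peaks in the fullest 10%, and windows of 2 Mb gave 20.4% and 28.1%. Stretches over 1 Mb took up 54.1% of the span and those over 5 Mb 15.6%. Chromosomes 20, 6 and 12 had the 3 lowest densities as listed, after merging and among the widest 50%, but among the widest 50% chromosome 6 ranked the sixth by empty windows. No paired analysis was possible because 1 list stands for all bovine libraries, and no single library could be left out. Leaving out stretches of other lengths and leaving out peaks closer than 500 bp were chosen after seeing the data.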
